A study of Mus musculus with 6 samples.

Results

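The genes described here make, break down and respond to cyclic AMP: the adenylyl cyclases (Adcy), the cyclic nucleotide phosphodiesterases (Pde), the subunits of protein kinase A (PKA, genes Prkar and Prkac), the A-kinase anchoring proteins (Akap) and the Rap exchange factors Rapgef2 to Rapgef6. They were taken from the deposited count table by gene symbol and by the protein-coding label alone, which gave 56 of 55860 genes. The libraries are RNA-seq of granulosa cells from mouse ovaries, the somatic cells around the oocyte, in 2 genotypes: Il22r-/-, in which the gene for the interleukin-22 receptor is disrupted on both alleles, and Il22r+/+. Each genotype had 3 libraries. Cells of both genotypes had been isolated by density gradient and kept for 12 h in medium with 10% fetal bovine serum, and no hormone or cytokine treatment is named. The labels do not give strain, age, the number of animals, the deleted exon or the full symbol of the receptor gene, and the series title concerns ovulation in polycystic ovary syndrome.

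Follicle-stimulating hormone and luteinizing hormone act on granulosa cells largely through receptors that couple to the stimulatory G protein and so to adenylyl cyclase. The cyclic AMP made there releases the catalytic subunits of PKA from the regulatory ones, and it also activates the exchange factors encoded by Rapgef3 and Rapgef4, known as EPAC proteins. Phosphodiesterases end the signal, and anchoring proteins hold PKA at particular sites in the cell, often beside a cyclase or a phosphodiesterase.

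The deposited counts summed to between 14948187 and 18116413 reads per library in Il22r-/- and between 17425229 and 17704556 in Il22r+/+. Il22ra1, taken as the targeted gene, drew only 5, 2 and 0 reads from the Il22r-/- libraries and only 1, 5 and 4 from the Il22r+/+ libraries, too few to check the genotype labels. Il22r-/- replicate 3 stood apart from the others on the second principal component, which held 4.21% of the variance. Granulosa markers were present and moved both ways, with 4 of 10 tested called higher and 3 lower. Foxl2 was at 116.8 to 174.5 CPM in Il22r-/- and 177.2 to 203.8 CPM in Il22r+/+ (CPM, read counts scaled to the TMM-normalised library size). Cyp19a1 had 1 read in all of Il22r-/- and 36 in Il22r+/+. Fshr, the receptor for follicle-stimulating hormone, rose to 5.99 ± 1.10 CPM in Il22r-/-, against 0.257 ± 0.183 CPM in Il22r+/+ (22.7-fold, SD, n = 3 each). It had only 1, 7 and 5 reads in the Il22r+/+ libraries, and passed the filter on low counts only through Il22r-/-. Amhr2, Nr5a2 and Inhba rose 2.77-fold, 3.33-fold and 1.62-fold. Serpine2, Nr5a1 and Foxl2 were called lower and fell 3.26-fold, 1.45-fold and 1.39-fold. The 12 granulosa markers together summed to 6650 to 7435 CPM in Il22r-/- and 7782 to 8428 CPM in Il22r+/+. Most of this sum was Inha, Inhba and Serpine2, at 2605, 2858 and 725 CPM on average in Il22r-/- and 3202, 1759 and 2364 CPM in Il22r+/+. Markers of other cells differed between the genotypes. Of 12 macrophage markers 10 were tested and 9 called higher, beside 23.6% of all tested genes, while Cd14 did not pass. The 12 summed to 30.2 to 89.8 CPM in Il22r-/- and 10.7 to 13.7 CPM in Il22r+/+. Of these sums Lyz2 held 29.5 and 2.74 CPM on average. Adgre1, C1qa, C1qb and Tyrobp passed the filter on low counts, set at 0.568 CPM, only through Il22r-/-. So did C1qc and Fcer1g, above that cutoff in Il22r+/+ replicate 3 alone. Such calls support nothing further. Of 7 ovarian surface and mesothelial markers 4 were called lower, beside 22.1% of all tested genes. The 7 summed to 27.2 to 47.5 CPM in Il22r-/- and 259.6 to 264.3 CPM in Il22r+/+. This list was mixed too: Krt19, Krt7 and Wt1 did not pass, with log2 changes of 0.67, 0.98 and -0.18. The 6 fibroblast markers summed to 224.5 to 382.6 CPM in Il22r-/- and 681.3 to 703.2 CPM in Il22r+/+, but were mixed: Dcn fell 22.7-fold and Col3a1 2.801-fold, Col1a2 rose 37.9-fold, and the other 3 did not pass. The 8 smooth muscle markers summed to 490.6 to 744.7 CPM in Il22r-/- and 389.5 to 451.8 CPM in Il22r+/+, of which Acta2 held 462.2 CPM in Il22r-/- and 277.5 CPM in Il22r+/+ on average. Of them 5 were called higher, while Tagln and Lmod1 were called lower and Cnn1 did not pass. No marker on these 4 lists was at 0 in all libraries, and Ptprc, which defines leukocytes, was at 14, 26 and 2 reads in the Il22r-/- libraries, against 0, 3 and 0 in the Il22r+/+ libraries. The part of these cells in the changes below was not tested, and in such bulk samples fewer cells of a type cannot be told apart from less RNA per cell.

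Of the 56 genes, 42 had enough reads for a test. In Il22r-/- 12 of these were called higher and 12 lower, while 18 did not pass. A call means a Benjamini-Hochberg adjusted p under 0.05 in edgeR's quasi-likelihood test over all 15227 tested genes. The share called was 57.1% here against 45.7% of all tested genes, where 23.6% were called higher and 22.1% lower. The median log2 change of the 42 was -0.07, and that of all tested genes was 0.03. The filter works on either group, and Akap6, Pde11a, Pde8b, Rapgef4 and Rapgef5 passed it only through Il22r-/-, so the counts describe the genes that were tested and support nothing further. At least a 2-fold change was called in 12 of the 42, 6 higher and 6 lower, where 14.3% of all tested genes reached it (8.03% higher and 6.3% lower).

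**Figure D1:**
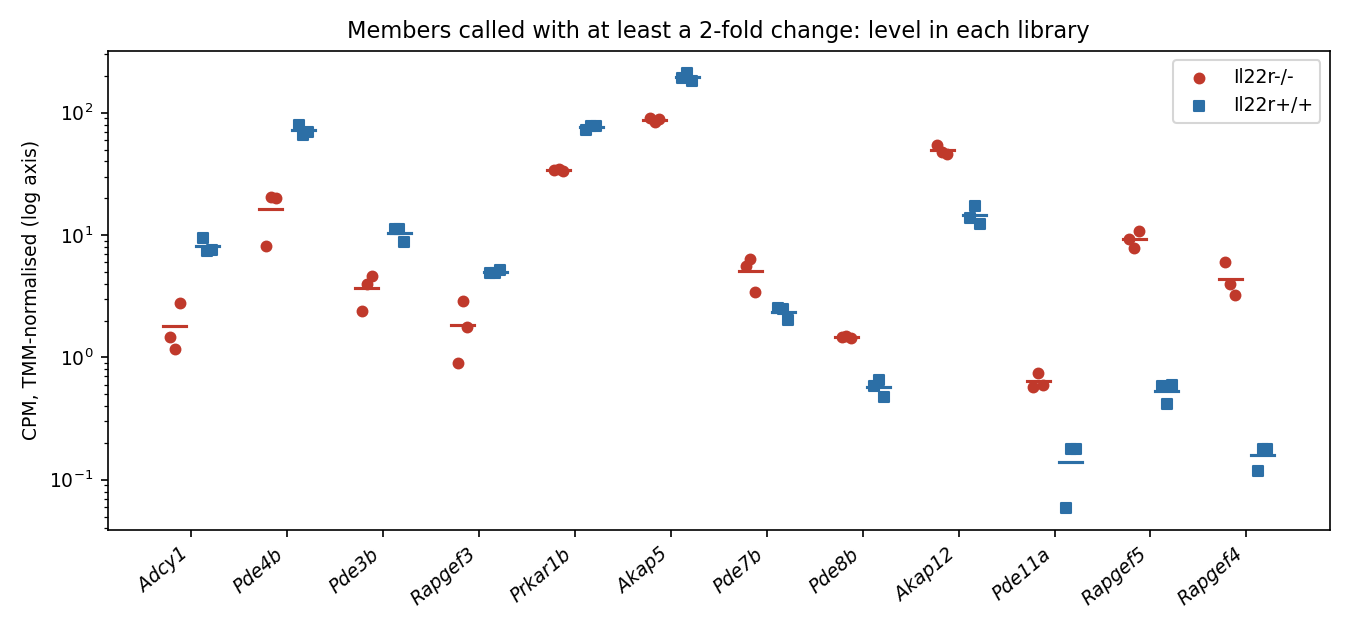
Level of each of the 12 genes called with at least a 2-fold change, in CPM on a log axis, with 1 point per library (circles for Il22r-/-, squares for Il22r+/+) and a line at each group's mean. The genes run from the largest fall, Adcy1 at a log2 change of -2.20, to the largest rise, Rapgef4 at 4.75, and in none of them do the groups overlap.

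The groups did not overlap in any of the 24 called genes, nor in 6 of the 18 that did not pass. Over all tested genes 56% had groups without overlap. The 14 genes without a test had at most 32 reads in the 3 Il22r-/- libraries together and at most 11 in the 3 Il22r+/+ libraries. Akap3 and Akap4, anchoring proteins of sperm, and Pde6c, of cone photoreceptors, had no read in any library, which allows a level of up to 0.0586 CPM over the Il22r-/- libraries together and 0.057 CPM over the Il22r+/+ libraries together (3 counts, counting error only). Adcy2 was seen in 12, 15 and 5 reads in Il22r-/- against 4, 0 and 2 in Il22r+/+, and Pde9a in 8, 4 and 8 against 1, 3 and 2. In both genes every Il22r-/- library was above every Il22r+/+ library, and both fell below the filter on low counts. Pde1c, with 5, 3 and 2 reads against 0, 1 and 2, was also untested and without overlap in CPM. Adcy2 was tested and called higher with no filter, without Il22r+/+ replicate 1 and without Il22r-/- replicate 3.

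Promoter windows were searched for the cyclic AMP response element, the site of CREB proteins that PKA phosphorylates, since several genes of the pathway are themselves known targets of it. The palindrome TGACGTCA and its shorter core TGACG, which the palindrome contains on either strand, were searched on both strands in the 250 bases before each RefSeq start site (build GRCm38.p6, the mm10 assembly). RefSeq windows matched 47 of the 56 genes by symbol. The palindrome stood in 1 of their 91 windows (1.1%) against 1.55% of 32851 windows of all genes, and the core in 16.5% against 17.8%. Counted by gene instead, with any window of a gene taken, the palindrome was in 2.13% of the 47 against 1.77% of 27025 genes, and the core in 27.7% against 19.8%. The 47 genes had 91 windows and the 27025 genes 32851, so each of the 47 had more windows on average in which to match. The windows below are of Prkar1a, the only one of the 47 with the palindrome, of Prkaca, with 2 cores, and of Rapgef4, the gene with the largest rise. Capitals mark the sites, Rapgef4 has none in its window, all 3 are on the plus strand, and the Prkar1a window, which lies before a RefSeq start inside the annotated gene, stops where an annotated exon begins. Such matches describe the letters and not binding.
Prkar1a, chr11:109650699-109650920: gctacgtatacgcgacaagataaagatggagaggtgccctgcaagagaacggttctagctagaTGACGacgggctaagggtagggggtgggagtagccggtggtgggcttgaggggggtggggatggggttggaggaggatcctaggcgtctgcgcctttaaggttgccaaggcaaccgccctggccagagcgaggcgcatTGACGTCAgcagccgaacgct
Prkaca, chr8:83972728-83972977: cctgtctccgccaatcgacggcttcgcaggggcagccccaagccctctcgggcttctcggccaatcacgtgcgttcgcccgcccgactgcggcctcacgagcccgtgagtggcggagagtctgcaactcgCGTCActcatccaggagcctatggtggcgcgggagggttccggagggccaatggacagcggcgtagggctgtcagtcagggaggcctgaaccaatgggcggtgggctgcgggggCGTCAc
Rapgef4, chr2:71980965-71981214: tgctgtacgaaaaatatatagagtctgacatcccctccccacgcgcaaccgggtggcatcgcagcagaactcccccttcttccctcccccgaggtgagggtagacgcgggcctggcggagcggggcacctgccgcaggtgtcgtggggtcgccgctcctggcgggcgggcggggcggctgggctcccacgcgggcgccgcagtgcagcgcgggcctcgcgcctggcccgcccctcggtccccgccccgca

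Of 10 adenylyl cyclase genes 6 were tested, 3 were called lower in Il22r-/- and none higher, a share of 50% near the 45.7% of all tested genes. Adcy6 (ENSMUSG00000022994, mm10 chromosome 15, 98589973 to 98610076), a cyclase that calcium inhibits, was the most abundant per length, at 20.5 ± 0.711 FPKM in Il22r-/- and 38.8 ± 0.792 FPKM in Il22r+/+ (SD, n = 3 each; FPKM, fragments per kilobase scaled to library size, as deposited). It had 133.4, 140.4 and 139.5 CPM in Il22r-/- replicates 1 to 3, against 252.1, 262.8 and 254 CPM in Il22r+/+ replicates 1 to 3. The highest Il22r-/- library was thus far below the lowest Il22r+/+ library, and the log2 change was -0.90 ± 0.07 (SE, adjusted p = 4.85e-06). Adcy1 (chromosome 11, 7063489 to 7178506), which calcium and calmodulin stimulate, had 1.47, 1.17 and 2.76 CPM in Il22r-/-, against 9.48, 7.40 and 7.52 CPM in Il22r+/+. It fell 4.58-fold (log2 change -2.20 ± 0.29, adjusted p = 0.000161). Adcy3, best known from olfactory neurons, fell less, by 0.52 ± 0.11 on the log2 scale, and 22.1% of its exon length is shared with Cenpo on the other strand. Without a stated strand setting, reads of these 2 genes cannot be told apart there.

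Adcy9, the membrane-bound cyclase least sensitive to forskolin, was the second most abundant and did not pass the test. Its levels were 75.9, 70.2 and 80.3 CPM in Il22r-/- and 89.95, 78.95 and 68.05 CPM in Il22r+/+, with overlapping groups and a log2 change of -0.07 ± 0.10 (adjusted p = 0.626). Adcy5 and Adcy7, at 3.58 ± 1.20 and 5.32 ± 0.569 CPM in Il22r-/- and 3.45 ± 0.615 and 5.32 ± 0.729 CPM in Il22r+/+, did not pass either. Adcy6 made up 50.2%, 51.6% and 48.5% of the summed FPKM of the 10 cyclases in Il22r-/-, and 59.8%, 62.6% and 63.7% in Il22r+/+. The sum itself was 41.0 ± 2.04 FPKM in Il22r-/- and 62.6 ± 1.84 FPKM in Il22r+/+. This and the other sums below are given as descriptions with no test.

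Of 22 phosphodiesterase genes 15 were tested, 6 were called higher and 3 lower, a share of 60% beside the 45.7% of all tested genes (23.6% higher, 22.1% lower). Of 8 genes whose enzymes act on cyclic AMP only, 7 were tested, with 3 called higher and 2 lower. Pde4b (ENSMUSG00000028525, chromosome 4, 102087543 to 102607259), the rolipram-sensitive enzyme known from inflammatory cells, had 8.19, 20.5 and 20.0 CPM in Il22r-/-, against 79.4, 65.7 and 69.8 CPM in Il22r+/+. Il22r-/- replicate 1 was the lowest of all, the other 2 lay close together, and none came near the Il22r+/+ range. Pde4b fell 4.43-fold (log2 change -2.15 ± 0.33, adjusted p = 0.00243). Its paralogue Pde4a fell by 0.49 ± 0.12 on the log2 scale (adjusted p = 0.00715). Pde4d averaged 3.14 ± 0.428 CPM in Il22r-/- and 4.48 ± 0.799 CPM in Il22r+/+ and did not pass (log2 change -0.51 ± 0.23, adjusted p = 0.0868), although it was called lower without Il22r-/- replicate 3 (adjusted p = 0.0434).

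Within the Pde4 genes the leading transcript differed between libraries. Pde4b held 24.0%, 48.2% and 48.3% of the summed Pde4 FPKM in Il22r-/-, and 70.5%, 67.8% and 67.2% in Il22r+/+. The sum was 3.77 ± 0.466 FPKM in Il22r-/- and 10.2 ± 0.777 FPKM in Il22r+/+, while Pde4c had 3 reads in all, none of them in Il22r-/-. In Il22r-/- replicate 1 the leading Pde4 transcript was Pde4a, at 2.20 FPKM, with Pde4b at 0.776 FPKM. In the other 2 Il22r-/- libraries the pair was nearly level, with Pde4b at 1.96 and 1.93 FPKM and Pde4a at 1.88 and 1.77 FPKM. In every Il22r+/+ library Pde4b led, at 7.73, 6.38 and 6.80 FPKM against 2.92, 2.62 and 2.86 FPKM of Pde4a.

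The rolipram-insensitive cyclic AMP enzymes Pde7a, Pde7b and Pde8b were called higher. Pde7b had 5.62, 6.35 and 3.42 CPM in Il22r-/- and 2.52, 2.51 and 2.01 CPM in Il22r+/+, a log2 change of 1.13 ± 0.27 (adjusted p = 0.00562). Pde8b, a high-affinity enzyme of steroid-producing cells, had 1.47, 1.49 and 1.45 CPM in Il22r-/- against 0.585, 0.656 and 0.474 CPM in Il22r+/+ (log2 change 1.35 ± 0.34, adjusted p = 0.00786), and 7.60% of its exon length is shared with Gm48420 on the other strand. Pde7a rose by 0.40 ± 0.11 on the log2 scale, and lost its call without Il22r+/+ replicate 1 (adjusted p = 0.0559). The calls of all 3 ended in limma on unfiltered log2(FPKM + 1) values, with adjusted p-values of 0.0846, 0.139 and 0.0836 for Pde7a, Pde7b and Pde8b.

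Pde8a, the most abundant phosphodiesterase per length, did not pass. It had 53.5, 65.3 and 81.6 CPM in Il22r-/- and 71.3, 72.0 and 74.6 CPM in Il22r+/+, so that the Il22r-/- libraries lay on both sides of the narrow Il22r+/+ range (log2 change -0.12 ± 0.13, adjusted p = 0.476). Without Il22r-/- replicate 3 it was called lower (log2 change -0.31, adjusted p = 0.00717), and without Il22r-/- replicate 1 the change was 0.01 with an adjusted p of 0.963. Pde8a held 62.3% ± 3.18 of the summed FPKM of the 8 cyclic AMP enzymes in Il22r-/- and 55.7% ± 1.33 in Il22r+/+, and that sum was 26.6 ± 4.53 FPKM in Il22r-/- and 33.1 ± 0.837 FPKM in Il22r+/+.

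Among 8 enzymes that split both cyclic AMP and cyclic GMP, 6 were tested, 3 were called higher and 1 lower. That is a share of 66.7% beside the 45.7% of all tested genes (23.6% higher, 22.1% lower). Of those called higher, Pde11a passed the filter on low counts only through Il22r-/-. Pde3b, the enzyme that insulin activates and cyclic GMP inhibits, had 2.42, 3.95 and 4.66 CPM in Il22r-/-, against 11.2, 11.2 and 8.82 CPM in Il22r+/+, and fell 2.85-fold (log2 change -1.51 ± 0.23, adjusted p = 0.000455). Pde3a, the form that holds cyclic AMP down in the rodent oocyte, had 2.57, 7.74 and 5.26 CPM in Il22r-/- and 10.0, 7.996 and 8.71 CPM in Il22r+/+. It did not pass (log2 change -0.78 ± 0.33, adjusted p = 0.0844), but was called lower in DESeq2, in limma-voom and with no filter, at adjusted p-values of 0.0294, 0.0469 and 0.00072. The nearest libraries of the 2 groups, Il22r-/- replicate 2 and Il22r+/+ replicate 2, almost met, and without that Il22r-/- library Pde3a was called as well (log2 change -1.21, adjusted p = 0.00815). Oocyte markers had summed levels of 0.525 to 3.05 CPM in Il22r-/- and 1.54 to 1.64 CPM in Il22r+/+, and neither of the 2 tested markers was called.

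Pde11a, mutated in human adrenal hyperplasia, had 11, 14 and 9 reads in Il22r-/- against 1, 3 and 3 in Il22r+/+. Its fitted log2 change was 2.16 ± 0.56 (adjusted p = 0.00963), and it lost its call in limma on log2(FPKM + 1), at an adjusted p of 0.057 with the filter and 0.0593 without. Pde10a, best known from the striatum, rose by 0.69 ± 0.14 and the calmodulin-dependent Pde1a by 0.53 ± 0.14 on the log2 scale, and both lost their calls in limma on unfiltered log2(FPKM + 1) values (adjusted p-values 0.0723 and 0.0523). The related Pde1b did not pass (log2 change -0.20 ± 0.10, adjusted p = 0.118), although its groups, 21.2, 23.3 and 21.02 CPM in Il22r-/- and 26.0, 25.8 and 23.6 CPM in Il22r+/+, did not overlap.

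Of the 5 enzymes specific to cyclic GMP only Pde5a, the target of sildenafil, had enough reads. It had 65.3, 63.4 and 76.6 CPM in Il22r-/- and 58.2, 61.6 and 53.4 CPM in Il22r+/+, and stood just outside the threshold (log2 change 0.24 ± 0.09, adjusted p = 0.051). It was called with library size as the only scaling, with no filter and with the stricter filter, at adjusted p-values of 0.00821, 0.0328 and 0.0484. Pde6d, which shares the Pde6 name but encodes a carrier of prenylated proteins and no catalytic enzyme, had 35.0, 33.6 and 26.8 CPM in Il22r-/- against 38.7, 37.5 and 38.4 CPM in Il22r+/+ (log2 change -0.26 ± 0.11, adjusted p = 0.0665). Pde6d was called lower with DESeq2 size factors, in limma on log2(FPKM + 1) and log2(FPKM + 0.1), and without Il22r-/- replicate 1, at adjusted p-values of 0.0463, 0.0484, 0.0479 and 0.0309.

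**Figure D2:**
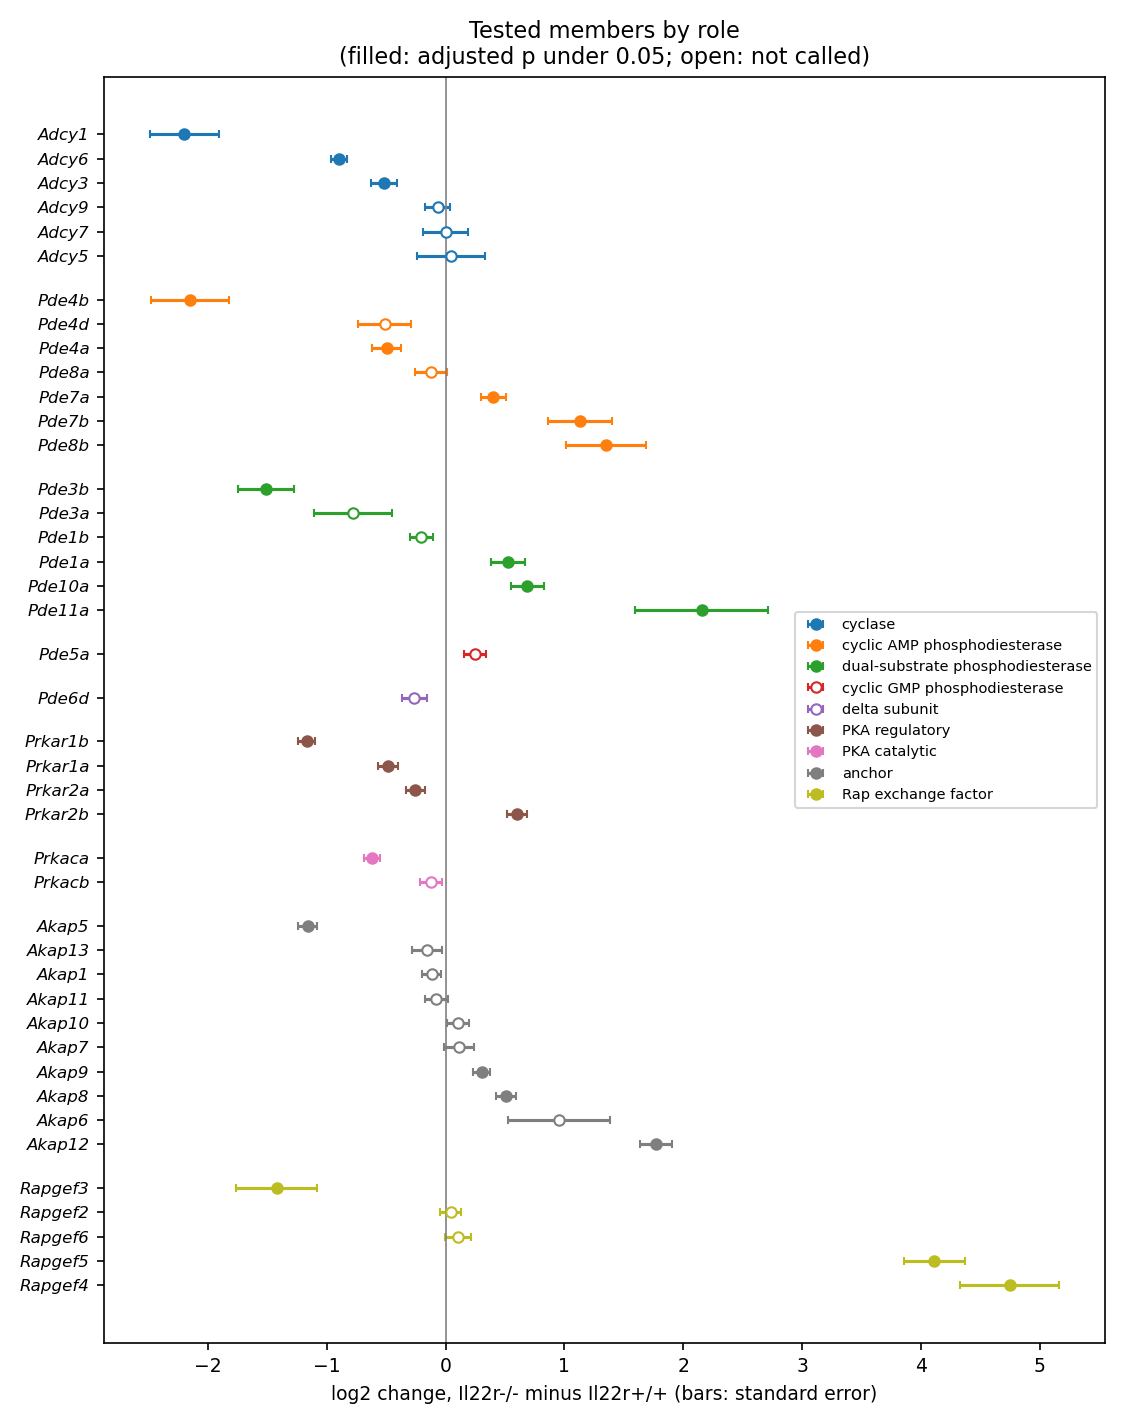
Log2 change (Il22r-/- minus Il22r+/+) with its standard error for the 42 tested genes, grouped by role and coloured by it, with filled points for the 24 called genes. All 3 called cyclases lie left of 0, the phosphodiesterases and the exchange factors spread to both sides, and Prkar2b is the only PKA subunit right of 0.

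All 4 regulatory subunits of PKA were called, 3 lower and 1 higher. Of all tested genes 45.7% were called, 22.1% lower and 23.6% higher. Prkar1a (ENSMUSG00000020612, chromosome 11, 109649405 to 109669656), the type I subunit mutated in human Carney complex and the most abundant gene of the 56 per length, had 445, 449.4 and 401.1 CPM in Il22r-/-, against 609.4, 594.2 and 607.8 CPM in Il22r+/+. It fell by 0.48 ± 0.08 on the log2 scale (adjusted p = 0.000722). The other type I gene, Prkar1b (ENSMUSG00000025855, chromosome 5, 139017306 to 139150001), best known from neurons, had 34.0, 34.8 and 33.4 CPM in Il22r-/-, against 72.9, 78.4 and 78.5 CPM in Il22r+/+. Both groups were tight, and the fall was 2.25-fold (log2 change -1.17 ± 0.07, adjusted p = 1.21e-06). Gm15672 shares 8.95% of the Prkar1b exon length on the same strand.

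The type II subunits moved apart. Prkar2b (ENSMUSG00000002997, chromosome 12, 31958476 to 32061296), the form that follicle-stimulating hormone is known to induce in rat granulosa cells, had 190.8, 188 and 186.3 CPM in Il22r-/-, against 127.6, 111.6 and 133.3 CPM in Il22r+/+. It rose 1.52-fold (log2 change 0.60 ± 0.08, adjusted p = 0.000182). Prkar2a had 51.1, 48.4 and 54.8 CPM in Il22r-/- and 58.4, 66.0 and 59.5 CPM in Il22r+/+, a fall of 0.25 ± 0.08 on the log2 scale (adjusted p = 0.0282). The Prkar2a call ended under the most alternatives of the 24: with library size as the only scaling (adjusted p = 0.152), with the replicate block (0.0597), in limma on unfiltered log2(FPKM + 1) values (0.0694), and when Il22r+/+ replicate 2 or 3 or Il22r-/- replicate 1 or 2 was left out (0.122, 0.0576, 0.0559 and 0.0877).

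Of the catalytic subunits, Prkaca (ENSMUSG00000005469, chromosome 8, 83972993 to 83996443) fell and Prkacb did not pass. Prkaca had 106.4, 105.5 and 110.5 CPM in Il22r-/-, against 160, 160.8 and 173.8 CPM in Il22r+/+ (log2 change -0.62 ± 0.07, adjusted p = 5.99e-05). Prkacb had 110, 110.3 and 132.3 CPM in Il22r-/- and 118.8, 136.4 and 128.3 CPM in Il22r+/+ (log2 change -0.12 ± 0.09, adjusted p = 0.303), and only the third Il22r-/- library lay inside the Il22r+/+ range. Without that library Prkacb was called lower (log2 change -0.23, adjusted p = 0.0107).

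The make-up of the regulatory pool differed between the genotypes when read per length. Type II subunits held 35.0%, 34.3% and 37.0% of regulatory FPKM in Il22r-/-, against 21.6%, 20.6% and 22.1% in Il22r+/+, and Prkar2b alone held 30.6% ± 0.912 in Il22r-/- and 16.7% ± 1.19 in Il22r+/+ (SD, n = 3 each). The regulatory sum was 170.1 ± 5.15 FPKM in Il22r-/- and 209.1 ± 4.64 FPKM in Il22r+/+, and the catalytic sum was 57.1 ± 3.00 FPKM in Il22r-/- and 83.1 ± 3.54 FPKM in Il22r+/+. The ratio of catalytic to regulatory FPKM was 0.321, 0.319 and 0.369 in Il22r-/-, against 0.381, 0.403 and 0.408 in Il22r+/+, so that Il22r-/- replicate 3 came close to Il22r+/+ replicate 1. These are transcript levels, and the subunit proteins were not measured.

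**Figure D3:**
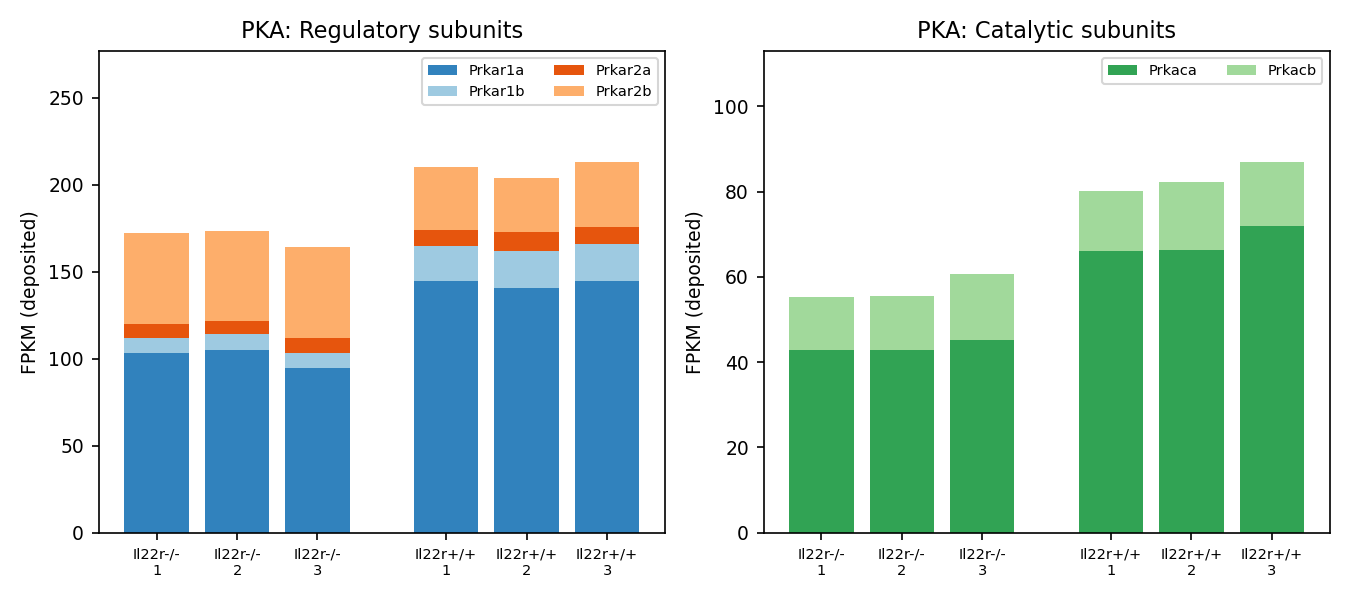
Deposited FPKM of the regulatory (left) and catalytic (right) PKA subunit genes, stacked for each of the 6 libraries, the Il22r-/- libraries left of the Il22r+/+ libraries. The Prkar2b layer is thicker in Il22r-/- (52.0 FPKM on average against 34.9) while the Prkar1a layer is thinner (100.8 against 143.6), and both stacks are lower in Il22r-/-.

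Most anchoring proteins did not pass the test. Of 13 genes 10 were tested, 3 were called higher, 1 lower and 6 not at all, a share of 40% beside the 45.7% of all tested genes. Akap5 (ENSMUSG00000021057, chromosome 12, 76324891 to 76334153), which holds PKA, protein kinase C and calcineurin at the plasma membrane, had 90.5, 84.2 and 88.1 CPM in Il22r-/-, against 192.2, 213.1 and 181.5 CPM in Il22r+/+. It fell 2.23-fold (log2 change -1.16 ± 0.08, adjusted p = 2.29e-06). Akap12 (ENSMUSG00000038587, chromosome 10, 4266380 to 4359470), the scaffold also called gravin, went the other way, with 54.4, 48.0 and 45.6 CPM in Il22r-/- against 13.9, 17.4 and 12.2 CPM in Il22r+/+ (3.41-fold higher, log2 change 1.77 ± 0.13, adjusted p = 3.53e-06).

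Per length Akap5 stayed above Akap12 in both genotypes. Akap5 stood at 13.0 ± 0.449 FPKM in Il22r-/- and 29.5 ± 2.36 FPKM in Il22r+/+, and Akap12 at 7.40 ± 0.616 FPKM in Il22r-/- and 2.21 ± 0.398 FPKM in Il22r+/+. Akap1, which anchors PKA to the outer mitochondrial membrane, stood at 21.7 ± 1.64 FPKM in Il22r-/- and 24.0 ± 0.758 FPKM in Il22r+/+, above Akap5 in Il22r-/- and below it in Il22r+/+. It did not pass, with 94.8, 102 and 86.9 CPM in Il22r-/- and 104.8, 99.1 and 103.9 CPM in Il22r+/+ (log2 change -0.12 ± 0.08, adjusted p = 0.244). The summed FPKM of the 13 anchors was 88.3 ± 0.966 in Il22r-/- and 98.2 ± 4.41 in Il22r+/+.

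The nuclear anchor Akap8 rose by 0.51 ± 0.08 and the centrosomal and Golgi anchor Akap9 by 0.30 ± 0.07 on the log2 scale, with adjusted p-values of 0.000702 and 0.00642. Akap6, the perinuclear anchor of muscle cells, was at 13, 22 and 12 reads in Il22r-/- against 7, 6 and 10 in Il22r+/+, and did not pass despite groups without overlap (log2 change 0.95 ± 0.43, adjusted p = 0.0955). Akap7, Akap10, Akap11 and Akap13 had log2 changes from -0.15 to 0.11 and overlapping groups. Without Il22r-/- replicate 3, Akap11 and Akap13 were called lower (log2 changes -0.20 and -0.32, adjusted p-values 0.0206 and 0.0122).

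The largest changes of the 56 genes were among the Rap exchange factors, where the 2 EPAC genes moved in opposite directions. Rapgef4 (ENSMUSG00000049044, chromosome 2, 71981240 to 72257474), which encodes EPAC2, had 115, 74 and 49 reads in Il22r-/- against 2, 3 and 3 in Il22r+/+, or 6.04, 3.95 and 3.22 CPM against 0.117, 0.179 and 0.178 CPM. Each Il22r-/- library held many times the reads of any Il22r+/+ library, and the fitted log2 change was 4.75 ± 0.42 (adjusted p = 1.07e-05). Rapgef3 (ENSMUSG00000022469, chromosome 15, 97744770 to 97767972), which encodes EPAC1, had 17, 54 and 27 reads in Il22r-/- against 83, 82 and 87 in Il22r+/+. In CPM these were 0.893, 2.88 and 1.77 in Il22r-/- and 4.85, 4.89 and 5.15 in Il22r+/+ (2.68-fold lower, log2 change -1.42 ± 0.34, adjusted p = 0.0066). Antisense genes overlap the exons of both over small parts, 5.54% and 3.72% in Rapgef3 and 5.05% in Rapgef4, and the partner of Rapgef4 had no reads.

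Per length, Rapgef4 held 86.5%, 56.5% and 63.3% of the FPKM of this pair in Il22r-/-, against 2.24%, 3.36% and 3.17% in Il22r+/+. The pair thus had more Rapgef4 than Rapgef3 transcript in each Il22r-/- library and far less in each Il22r+/+ library. Both were scarce: Rapgef3 had 0.295 ± 0.159 FPKM in Il22r-/- and 0.806 ± 0.0273 FPKM in Il22r+/+, and Rapgef4 had 0.664 ± 0.215 FPKM in Il22r-/- and 0.0243 ± 0.00544 FPKM in Il22r+/+. Within Il22r-/-, replicate 1 had the most Rapgef4 and the least Rapgef3, and it was also the library with the least Pde4b.

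Rapgef5 (ENSMUSG00000041992, chromosome 12, 117516479 to 117759737), a Rap exchange factor that is not one of the EPAC proteins, had 178, 146 and 165 reads in Il22r-/- against 10, 7 and 10 in Il22r+/+. It rose to 9.32 ± 1.52 CPM in Il22r-/-, against 0.532 ± 0.0987 CPM in Il22r+/+ (17.3-fold, log2 change 4.11 ± 0.26, adjusted p = 1.14e-06). The PDZ-domain exchange factors Rapgef6 and Rapgef2 were the most abundant of the family per length and did not pass. Rapgef6 had 43.8, 45.1 and 56.9 CPM in Il22r-/- and 46.6, 47.3 and 41.8 CPM in Il22r+/+ (log2 change 0.10 ± 0.11, adjusted p = 0.47), and Rapgef2 had 30.7, 30.3 and 33.4 CPM in Il22r-/- and 30.2, 29.6 and 31.6 CPM in Il22r+/+ (0.04 ± 0.09, adjusted p = 0.705).

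**Figure D4:**
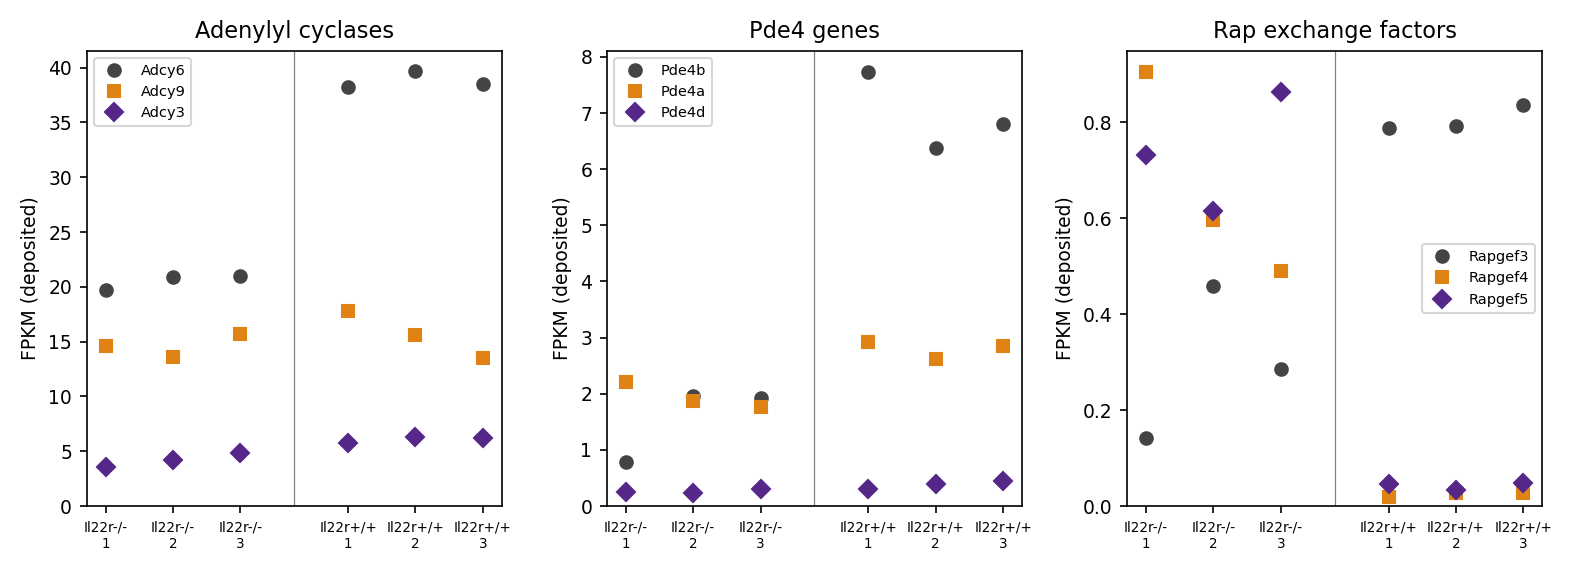
Deposited FPKM in each library for the leading cyclases (left), the Pde4 genes (middle) and the exchange factors Rapgef3, Rapgef4 and Rapgef5 (right), Il22r-/- libraries left of the line and Il22r+/+ libraries right of it. Adcy6 and Pde4b are lower in every Il22r-/- library, and Rapgef4 and Rapgef5, below 0.05 FPKM in Il22r+/+, reach 0.491 to 0.905 FPKM in Il22r-/-.

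Other genes of the pathway were read from a list of 36, chosen with earlier results of these data known. It held G protein subunits, PKA inhibitors, CREB factors and coactivators, and further PKA-binding proteins. Also on it were Abcc4, Bves, Gprasp1, Pde12, Popdc2, Popdc3 and Prkx, which are none of these. Of 32 tested, 7 were called higher and 10 lower, a share of 53.1% beside 45.7% of all tested genes, with a median log2 change of -0.07. The largest change was that of Ezr, the membrane linker ezrin that also binds PKA, with 159.9, 164.3 and 153.8 CPM in Il22r-/- against 1760, 1616 and 1738 CPM in Il22r+/+ (10.7-fold lower, adjusted p = 8.09e-09). Map2, a microtubule protein that anchors PKA in neurons, rose 7.30-fold, with 39.3, 45.4 and 59.8 CPM in Il22r-/- against 7.14, 6.38 and 6.22 CPM in Il22r+/+, and the intermediate filament protein Synm rose 3.37-fold. Gnai1, an inhibitory G protein subunit for adenylyl cyclase, had 37.2, 44.1 and 50.5 CPM in Il22r-/- and 16.0, 13.6 and 15.7 CPM in Il22r+/+ (2.91-fold higher, adjusted p = 6.92e-06). Gnas, the stimulatory subunit, was chosen after its values were seen: it had 83.7, 86.3 and 54.9 CPM in Il22r-/- and 76.0, 58.9 and 70.4 CPM in Il22r+/+ and did not pass (log2 change 0.13 ± 0.17, adjusted p = 0.566).

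Genes known to respond to cyclic AMP in granulosa or other cells did not move as a block. Of 26 listed 21 were tested, with 8 called higher and 7 lower. That is a share of 71.4% beside 45.7% of all tested genes, with a median log2 change of -0.01. This list too was chosen with earlier results of these data known, so its share describes the listed genes and supports nothing further. Vgf, a secreted neuropeptide precursor, fell 13.8-fold and the neurotrophin Bdnf 3.86-fold, with 46.95, 75.3 and 80.0 CPM in Il22r-/- against 254.5, 248.7 and 276.9 CPM in Il22r+/+ for Bdnf. The EGF-like ligand Ereg fell 2.93-fold. The coactivator Ppargc1a had only 16, 16 and 15 reads in Il22r-/- against 3, 3 and 3 in Il22r+/+. It averaged 0.893 CPM in Il22r-/- and 0.177 CPM in Il22r+/+ (log2 change 2.28 ± 0.46, adjusted p = 0.00225). The filter on low counts was set at 0.568 CPM, so Ppargc1a passed it only through Il22r-/-. Many of these genes answer to other signals as well, and cyclic AMP itself was not measured.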

How the data were processed

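The authors deposited raw read counts for 55860 genes and FPKM values. The tool featureCounts (1.5.0-p3) and the build mm10 are named, per the submitters' processing notes. Neither aligner nor strand setting nor read filters are stated there. Counts were tested as deposited in edgeR 4.0.16 (R 4.3.3): filterByExpr left 15227 genes, normalised with TMM and fitted with the robust quasi-likelihood method, genotype being the only term. P-values were adjusted by Benjamini-Hochberg over all tested genes. Log2 changes are Il22r-/- minus Il22r+/+ with standard errors of the fit. Levels of different genes are compared only in deposited FPKM, whose library scaling the labels leave unstated. P-values measure the spread between these libraries, which may be technical, since the labels name no separate animals. Floors cover counting error only, SDs are taken between libraries, and depth is given with the results.

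The genes and lists were chosen with earlier results of these data known. Given in full were genes called at a log2 change of at least 1 in size, the 2 most abundant of each family, all PKA subunits and up to 4 called genes per list. Other genes named one by one were chosen after their values were seen. The sums and shares of FPKM for Adcy6, Pde4b, Prkar2b, Pde8a and Rapgef4 were added after seeing the data. Alternatives were limma 3.58.1 (voom, and log2(FPKM + 1) or log2(FPKM + 0.1)), DESeq2 1.42.0, other scalings and filters, a replicate block and each library left out. Exon overlaps came from GENCODE M21. The edgeR step was tested on simulated data. Of the 56 genes, 55 have the same start and end in the files and in GENCODE M21.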

Additional observations from a re-analysis of the deposited data

How the results depend on the processing

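Of the 24 called genes, 17 kept their direction and call under all 16 alternatives, and of the 18 that did not pass 5 did. The counts of 12 higher and 12 lower lay at 11 to 14 and 11 to 13 under the other scalings, filters and tests, except in limma on log2(FPKM + 1) with no filter, which called 6 higher and 11 lower, 11 genes of the other pathway list instead of 17, and 5373 genes in all instead of 6963. Leaving out 1 library gave 12 to 13 higher and 11 to 17 lower genes. The 17 came without Il22r-/- replicate 3, where 30 genes were called, all 24 of the main test among them, with Adcy2, Akap11, Akap13, Pde4d, Pde8a and Prkacb added, beside 8243 genes called in all. With library size as the only scaling the median log2 change of all genes shifted up by 0.103, and 63.6% of all calls were higher instead of 51.6%. Leaving out 1 library kept the catalytic to regulatory ratio lower in Il22r-/-, by a difference of -0.0772 to -0.0523, and the type II share higher by 13.2 to 14.6 percentage points.

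Signs turned only among genes that were not called: Adcy5 (-0.0231 in limma-voom, -0.0111 on log2(FPKM + 0.1), -0.159 to 0.295 with 1 library left out), Adcy7 (-0.0163 with DESeq2 size factors, -0.0162 in DESeq2, -0.0212 on log2(FPKM + 0.1), -0.0113 on log2(FPKM + 1) with and without the filter, -0.105 to 0.114 with 1 library left out), and Adcy9 and Akap11 (0.0360 and 0.0243 with library size alone). With 1 library left out, the log2 change ranged over -0.168 to 0.0324 for Adcy9, -0.309 to 0.00729 for Pde8a, -0.0190 to 0.0671 for Rapgef2 and -0.0433 to 0.165 for Rapgef6. The causes were not tested.

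A fit with the replicate number as a block gave 12 higher and 11 lower genes, and Prkar2a was the only call it ended. The numbers gave no sign of pairing: deviations of same-numbered libraries correlated at -0.0406 to 0.026, and of others at -0.0159 to 0.0481. Deviations were taken from each group's own mean over few libraries, so these values do not settle whether libraries were paired. Low counts limit Rapgef4, Rapgef5, Pde11a, Pde8b, the marker Fshr and the listed gene Ppargc1a, whose Il22r+/+ libraries held few reads each.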
